A study of Mus musculus with 6 samples.

Results

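The alpha-arrestin TXNIP, its relatives ARRDC1 to ARRDC4 and the glucose-sensing transcription factors MondoA (gene Mlxip), ChREBP (gene Mlxipl) and their partner MLX were examined in mouse melanoma cells treated with fenofibrate. These 8 genes were taken by symbol from a table of 54838 genes. Txnip, Arrdc1, Arrdc2, Arrdc3, Mlx and Mlxip passed the filter on low counts and were tested with 13629 genes in all, while Arrdc4 and Mlxipl had no count in any library. The set was put together because Txnip was much lower in this very comparison, so the fold changes of the members are descriptions, given without p-values, and support nothing by themselves. RNA was sequenced from 3 control libraries and from 3 libraries of cells given fenofibrate at 50 µM, a lipid-lowering fibrate whose active acid switches on PPARα, a nuclear receptor of fat metabolism. The labels give no vehicle for the controls and no treatment time. The study names its cells B16F10, an established line from a mouse melanoma, but the cell line field counts upward from B16F10 in the first control to B16F15 in the last fenofibrate library. Libraries were grouped by title, and if that field were right, line and treatment could not be told apart.

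TXNIP binds thioredoxin and helps to remove glucose transporters from the cell surface, so that a cell rich in TXNIP takes up less glucose. ARRDC4 is its close relative and also restrains glucose uptake, while other alpha-arrestins are adaptors that bring ubiquitin ligases of the NEDD4 family to membrane proteins. Txnip and Arrdc4 are the best known targets of MondoA, which pairs with MLX, enters the nucleus when glucose-6-phosphate accumulates and binds a carbohydrate response element made of a pair of E-box-like sites. ChREBP, the liver paralogue of MondoA, uses the same partner and the same kind of element.

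The sequences upstream of Txnip and Arrdc4 are shown because these genes are the textbook readouts of MondoA. Each run holds the 250 bases before the RefSeq start in build GRCm38.p6, with the paired sites of a carbohydrate response element, E boxes (CACGTG) and CCAAT boxes (CCAAT or ATTGG) in capitals. The Txnip run lies on the plus strand at chr3:96557707-96557956, and that of Arrdc4 on the minus strand at chr7:68749239-68749488.
Txnip: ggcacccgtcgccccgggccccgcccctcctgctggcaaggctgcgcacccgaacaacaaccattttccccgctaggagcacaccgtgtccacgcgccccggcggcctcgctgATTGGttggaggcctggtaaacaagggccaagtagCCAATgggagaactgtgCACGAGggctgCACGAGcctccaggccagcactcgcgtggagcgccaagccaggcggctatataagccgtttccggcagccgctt
Arrdc4: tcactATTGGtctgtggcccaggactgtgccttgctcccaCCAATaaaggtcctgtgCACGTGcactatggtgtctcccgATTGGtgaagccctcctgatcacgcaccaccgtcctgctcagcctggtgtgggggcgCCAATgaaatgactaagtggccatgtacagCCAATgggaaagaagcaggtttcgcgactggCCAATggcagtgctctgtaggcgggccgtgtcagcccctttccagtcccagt

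The response element was searched as a pair of sites, CACGNG or its reverse complement CNCGTG, with 5 bases between them, in any orientation and so on both strands. Where a site reads CACGTG it is also an E box. Only 27 of 32851 RefSeq promoters, windows of 250 bases before to 50 after a start, held the element (0.0822%), and Txnip was the only one of the 8 members among them. Its element lies 85 to 69 bases before the start, outside any exon of Txnip (chr3:96557872-96557888). The search took only exact sites at this spacing and in this window. A member without a match, such as Arrdc4, is therefore not shown to lack an element. The element was also found before Pklr, the liver pyruvate kinase gene and a classical ChREBP target (chr3:89136453-89136469, plus strand). The paired sites are in capitals.
Txnip: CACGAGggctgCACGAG
Pklr: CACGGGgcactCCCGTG

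The Txnip promoter also held 2 CCAAT boxes, at 137 and 102 bases before the start, a motif found in 37.4% of promoters. The Arrdc4 window held an E box, as 7.15% of promoters did, and 6 CCAAT boxes. E boxes were also found before Mlx and Mlxipl. Such matches are descriptions of letters, not of binding.

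The libraries held 13540038 to 14710856 counts, so that a count of 0 allows up to 0.204 to 0.222 CPM, a library's counts scaled to a common total, for counting error alone. Levels below are normalised CPM, which use library totals scaled by TMM, unless they are called FPKM. Melanocytic markers summed to 21915 to 23163 normalised CPM in control and 27675 to 29411 with fenofibrate, and all 8 were counted, 6 of them called higher. The 5 fibroblast markers summed to 1.67 to 3.48 in control and to 1.06 to 1.36 with fenofibrate, with Pdgfra at 37 and 9 counts and Lum at 12 and 1 over the 3 libraries of each group. Endothelial and epithelial markers summed to at most 1.67 in any library, with Cdh5, Kdr, Tek and Krt5 at 0. The 6 leukocyte markers summed to 2.02 to 3.35 in control and 4.25 to 7.02 with fenofibrate, with Cd3e and Itgam at 0, Cd68 higher and Ptprc counted 0 times in control and 24 times with fenofibrate. The melanocytic, fibroblast and leukocyte sums did not overlap between the groups, and their part in the results was not tested. Of the tested genes, 39.1% passed an adjusted p of 0.05 in edgeR's quasi-likelihood test, 2664 higher and 2662 lower with fenofibrate. With library totals in place of TMM the split was 2180 to 3280. In bulk RNA, fewer cells of a type and less RNA per cell cannot be told apart, and p-values measure the spread between these libraries.

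The 3 control libraries held 617, 566 and 559 counts of Txnip, and the 3 fenofibrate libraries 110, 99 and 142. In normalised CPM these are 44.5, 39.5 and 40.5 against 8.30, 7.01 and 9.86. The groups lay far apart, the highest fenofibrate library standing well below the lowest control. Fenofibrate-treated cells kept 20.3% of the control level (95% interval 16.5% to 24.8%, log2 fold change -2.30 ± 0.13 SE, n = 3 each). Only 23 of the 13629 tested genes had a lower fold change, and among the 7185 genes with at least 5 FPKM in a group Txnip was second from the bottom. The gene, ENSMUSG00000038393, lies on the plus strand of chromosome 3 from 96557957 to 96561883 (GRCm38).

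Another gene lies across Txnip on the opposite strand. Gm15441 (ENSMUSG00000074398, chromosome 3, 96555765 to 96566801) is an antisense RNA that has been described in mouse liver as induced through PPARα and as lowering Txnip. It shares 606 bases with Txnip exons, 19.4% of their length. Gm15441 was counted 0, 0 and 1 times in control and 0, 2 and 0 times with fenofibrate, at or below the limit of 3 counts in every library. The strand setting of the counting is not given in the sources used here, so reads in the shared bases could not be assigned by strand. Ppara itself summed to 36 counts in control and to 23 with fenofibrate.

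**Figure D1:**
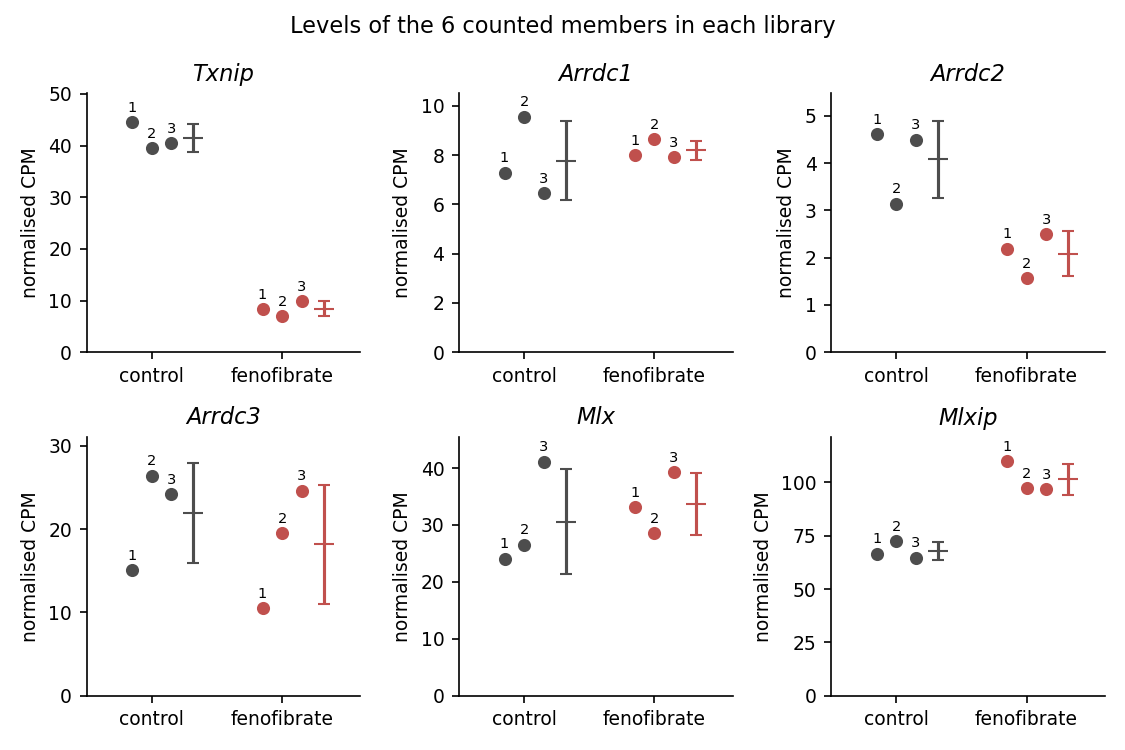
Normalised CPM (y axis, from 0) of the 6 counted members in each library, numbered by replicate, with the group mean and SD (n = 3) beside the points. Txnip and Arrdc2 are lower and Mlxip is higher in all 3 fenofibrate libraries than in every control, while the groups overlap for Arrdc1, Arrdc3 and Mlx.

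Among the other alpha-arrestins, Arrdc2 was lower with fenofibrate, and Arrdc1 and Arrdc3 showed no shift beyond their spread. Arrdc2 (ENSMUSG00000002910, chromosome 8, 70835129 to 70839720) was counted 64, 45 and 62 times in control and 29, 22 and 36 times with fenofibrate. Its groups did not overlap, but these are low counts. The level was 51.2% of control (95% interval 34.5% to 76.0%, log2 fold change -0.97 ± 0.24 SE, n = 3 each). It no longer passed the threshold without control replicate 1 (log2 fold change -0.87), without control replicate 3 (-0.89) or without fenofibrate replicate 2 (-0.79). The lowest size over all alternatives was -0.47, on log2(FPKM + 0.5), a scale that understates low genes.

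Arrdc1, whose product drives the budding of small vesicles from the plasma membrane, had 7.28, 9.55 and 6.46 normalised CPM in control and 8.0, 8.64 and 7.92 with fenofibrate. All 3 fenofibrate values fell within the range of the controls (log2 fold change 0.08 ± 0.16 SE, 95% interval -0.30 to 0.45). Without control replicate 3 the value was -0.04.

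Arrdc3, whose product binds beta-adrenergic receptors, was the most uneven of the tested alpha-arrestins. It had 15.1, 26.4 and 24.2 normalised CPM in control and 10.5, 19.5 and 24.6 with fenofibrate, with replicate 1 the lowest of each group. The coefficient of variation was 27.4% in control and 39.2% with fenofibrate, against 6.32% and 17.0% for Txnip. The log2 fold change was -0.26 ± 0.31 SE (95% interval -0.99 to 0.47), and 0.01 without fenofibrate replicate 1. An interval this wide leaves both a fall to 50.3% and a rise to 138% of control inside it. Arrdc3 overlaps the gene 1700023H06Rik, with no shared exon base.

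Arrdc4 was counted 0 times in all 6 libraries, so each library allows up to 0.222 CPM at most. Arrdc5, the remaining alpha-arrestin and no member of the set, had 3 counts in control replicate 2 and 0 elsewhere.

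Of the transcription factors, Mlxip (MondoA) was higher with fenofibrate, Mlx showed no shift beyond its spread, and Mlxipl (ChREBP) was not counted. Mlxip (ENSMUSG00000038342, chromosome 5, 123394798 to 123457932) had 66.6, 72.5 and 64.6 normalised CPM in control and 110, 97.4 and 96.7 with fenofibrate. Every fenofibrate library exceeded every control. The level was 1.49-fold that of control (log2 fold change 0.58 ± 0.07 SE, 95% interval 0.41 to 0.75, n = 3 each). Mlxip shares 267 exon bases with the antisense gene Gm15747, which had no count. It also overlaps Gm42907, Gm42908 and Gm43813 on its own strand, with no shared exon base and at most 7 counts each in all libraries. The MondoA gene was higher and Txnip lower in the fenofibrate group, and a link between them was not tested.

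Mlx (ENSMUSG00000017801, chromosome 11, 101087277 to 101092207) had 24.1, 26.5 and 41.1 normalised CPM in control and 33.1, 28.5 and 39.3 with fenofibrate. Control replicate 3 stood above every other library, and the groups overlapped. The log2 fold change was 0.14 ± 0.21 SE (95% interval -0.35 to 0.63), and -0.01 without control replicate 1. Its last exons share 385 bases with Psmc3ip on the other strand, 19.3% of the exon length of Mlx. Psmc3ip had 23.9 to 25.5 normalised CPM in control and 22.3 to 23.5 with fenofibrate, without the unevenness of Mlx. As for Txnip, the strand setting is not given, so reads in the shared bases could not be assigned by strand. Whether such reads add to the Mlx counts was not tested. Mlxipl had 0 counts in all 6 libraries.

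In all, 1 of the 6 tested members passed the threshold upward and 2 downward, where 19.5% of all tested genes did so in each direction. Their groups did not overlap, as was so for 53.3% of all tested genes. The median log2 fold change of the 6 was -0.09, against 0.00 over all genes. Nothing is read from these counts, since the comparison itself chose the set.

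**Figure D2:**
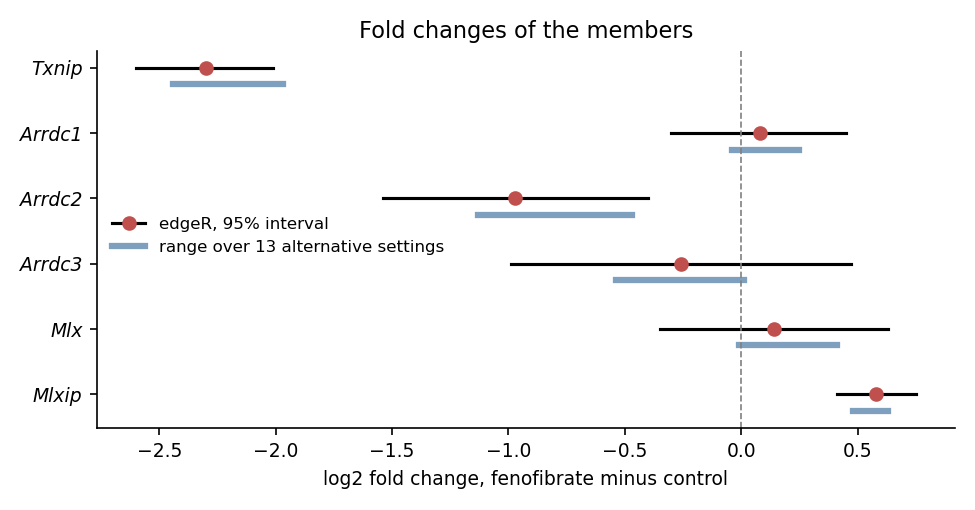
Log2 fold change (x axis, fenofibrate minus control) of the 6 tested members, with points for edgeR, black lines for its 95% interval and blue bars for the range over 13 alternative settings. Txnip, at -2.30, lies apart from the other members, and the bars of Arrdc1, Arrdc3 and Mlx reach across 0.

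Per length, the order of the members differed between the groups. In control, Mlx stood at 9.70 ± 2.89 FPKM, Txnip at 6.11 ± 0.399, Mlxip at 4.79 ± 0.297, Arrdc3 at 1.97 ± 0.537, Arrdc1 at 1.12 ± 0.233 and Arrdc2 at 0.604 ± 0.121 (mean ± SD, n = 3). Only the neighbours Arrdc3 and Arrdc1 overlapped in their ranges. With fenofibrate, Mlx stood at 10.3 ± 1.65 FPKM, Mlxip at 6.88 ± 0.502, Arrdc3 at 1.58 ± 0.619, Txnip at 1.19 ± 0.200, Arrdc1 at 1.13 ± 0.0576 and Arrdc2 at 0.297 ± 0.0678. Here Txnip had dropped into the range of Arrdc3 and Arrdc1 and could not be ordered against them. The lengths behind these FPKM values count overlapping exon versions more than once and exceed the merged exons 2.21-fold for Txnip and 1.6-fold for Mlx. Per merged exon length, the control libraries stood at 12.9 to 14.5 FPKM for Txnip and at 12.3 to 20.9 for Mlx, so that these neighbours overlapped.

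Txnip made up most of the alpha-arrestin RNA of control cells and a minority after fenofibrate. Its share of the summed alpha-arrestin FPKM was 67.9%, 58.0% and 61.3% in control and 33.5%, 24.2% and 28% with fenofibrate. The sum itself went from 9.66 to 10 FPKM over the 3 controls to 3.50, 4.12 and 4.98. Without Txnip it was 3.10 to 4.22 FPKM in control and 2.33 to 3.58 with fenofibrate, and those ranges overlapped. The ratio of Txnip to Mlxip, both in FPKM, was 1.14 to 1.39 in control and 0.15 to 0.213 with fenofibrate.

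**Figure D3:**
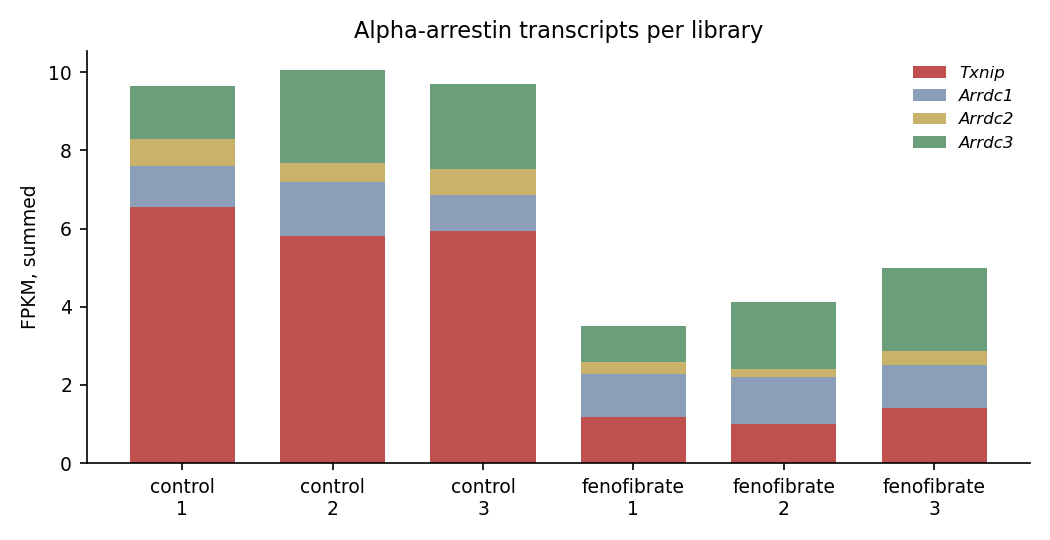
Stacked FPKM (y axis, from 0) of Txnip, Arrdc1, Arrdc2 and Arrdc3 in each library, with Arrdc4 at 0 in all. The bars of the 3 fenofibrate libraries reach 3.50 to 4.98 FPKM, and the Txnip segment is the part that shrinks most.

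Partner and pathway genes were read from the same fit in 8 lists of 98 genes, 79 of them tested. Of these, 24 rose, 17 fell and 38 were not called, beside 39.1% called among all genes. The fold changes and adjusted p values that follow come from edgeR's quasi-likelihood test with Benjamini-Hochberg adjustment over all tested genes. The lists were chosen with earlier results of these data known, and genes named for large changes were picked from the calls. Their p values are therefore descriptions and not those of unselected tests.

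The next list holds ligases of the NEDD4 family, the enzymes that alpha-arrestins recruit, and adaptors of these ligases. Of 10 tested, 6 rose, 0 fell and 4 were not called (60.0% called, median log2 fold change 0.31). Those that rose include the adaptor genes Ndfip1 (log2 fold change 0.29) and Ndfip2 (0.34), which do not encode ligases. At an unadjusted p of 0.05 the fallen numbered 1, and DESeq2 called 6 higher and 0 lower. Nedd4l rose from 285 ± 12.9 to 409 ± 24.6 in normalised CPM (SD, n = 3 per group; log2 fold change 0.52 ± 0.05 SE, adjusted p = 0.000343). Nedd4, the founding ligase, rose by 0.49 ± 0.06 (adjusted p = 0.000796). Hecw2 rose from 10 counts in all controls to 112 with fenofibrate (log2 fold change 3.45 ± 0.40, adjusted p = 0.00054), which becomes 0.30 on log2(FPKM + 0.5). Itch, which ubiquitinates TXNIP, stood at -0.08 ± 0.06 on the log2 scale (adjusted p = 0.288), and Wwp1 at -0.15 ± 0.05 (adjusted p = 0.0651), a gene called in 5 of 13 alternative settings, 1 of them without fenofibrate replicate 3 (adjusted p = 0.0341).

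The thioredoxin system, which TXNIP restrains, split. Of 11 genes, 4 rose, 3 fell and 4 were not called (63.6% called, median 0.12). Srxn1, the sulfiredoxin that repairs peroxiredoxins, rose from 86.1 ± 5.15 to 160 ± 25.2 normalised CPM (log2 fold change 0.89 ± 0.11, adjusted p = 0.000825). The reductase genes Txnrd3 (0.56 ± 0.09, adjusted p = 0.00221) and Txnrd1 (0.26 ± 0.04, adjusted p = 0.00176) also rose. Txnrd2, the mitochondrial reductase gene, fell by 0.36 ± 0.08 (adjusted p = 0.0125). Txn1, the partner bound by TXNIP, fell to 90.9% of control (adjusted p = 0.0419). That call was lost in 8 of 13 alternative settings, among them leaving out any 1 library but fenofibrate replicate 2 (adjusted p 0.051 to 0.12).

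Genes of glucose entry and of glucose-6-phosphate, the signal that MondoA reads, moved in both directions. Of 15 tested, 7 rose, 3 fell and 5 were not called (66.7% called, median 0.28). Slc2a1, the main glucose transporter gene of tumour cells, had 39.5, 36.3 and 38.5 normalised CPM in control and 71.5, 63.4 and 63.7 with fenofibrate (log2 fold change 0.80 ± 0.07, adjusted p = 0.000169). Slc2a13, a myo-inositol transporter gene of the same family, rose by 0.94 ± 0.23 (adjusted p = 0.0137) but was not called with limma on log2(FPKM + 0.5), at 0.37 (adjusted p = 0.0616), or on log2(FPKM + 0.1), at 0.69 (adjusted p = 0.0702). Slc2a6, a lysosomal family member, fell to 45.2% of control (adjusted p = 0.000442). Slc2a3, another glucose transporter gene, fell to 69.8% of control (adjusted p = 0.00847), with groups that did not overlap. The hexokinase gene Hk1 fell by 0.41 ± 0.08 (adjusted p = 0.0044), and Hk2, the isoform raised in many tumours, rose by 0.22 ± 0.06 (adjusted p = 0.0223). The Hk2 call was lost in 9 of 13 settings, among them without control replicate 2 or 3 or fenofibrate replicate 2 or 3 (adjusted p 0.0505 to 0.0711). Hk3, Slc2a12 and the glucose-6-phosphatase gene G6pc had 0 counts.

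Other targets of ChREBP or MondoA are mostly genes of lipid synthesis described in liver. Of 13 tested, 6 fell, 2 rose and 5 were not called (61.5% called, median -0.23). The elongase gene Elovl6 fell from 86.0 ± 4.32 to 44.7 ± 1.31 normalised CPM (log2 fold change -0.94 ± 0.06, adjusted p = 3.97e-05), and the desaturase gene Scd1 fell by 0.78 ± 0.09 (adjusted p = 0.000462). Fasn, the fatty acid synthase gene, fell by 0.52 ± 0.06 (adjusted p = 0.000431). Many of these are also targets of the sterol-regulated SREBP factors. Me1, the malic enzyme gene, rose by 0.73 ± 0.21 (adjusted p = 0.0284), with fenofibrate replicate 2 at 73.7 normalised CPM and the other two at 136. The Me1 call was lost in 9 of 13 settings, among them leaving out any 1 library but fenofibrate replicate 2 (adjusted p 0.07 to 0.0928). Klf10 also rose, by 0.53 ± 0.08 (adjusted p = 0.00184), with groups that did not overlap. Pklr, shown above with its element, had 1 count in all.

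The network that shares MLX and MAX as partners was mostly not called. Of 8 tested, 2 rose, 0 fell and 6 were not called (25.0% called, median 0.00), with 1 lower at an unadjusted p of 0.05 and 1 higher and 0 lower in DESeq2. Mxd4, whose product represses with MAX or MLX, rose from 33.1 ± 8.69 to 60.3 ± 12 normalised CPM (log2 fold change 0.87 ± 0.21, adjusted p = 0.0127). Myc rose by 0.21 ± 0.06 (adjusted p = 0.0272). The Myc call was lost in 11 of 13 settings, among them leaving out any 1 library but fenofibrate replicate 2 (adjusted p 0.0546 to 0.0793). Max stood at -0.17 ± 0.16 (adjusted p = 0.445), and passed without control replicate 1 (-0.35, adjusted p = 0.0173).

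A further list holds the 14-3-3 proteins and the exportin that retain or export the Mondo factors, along with O-GlcNAc transferase. Another holds LKB1 and the subunits of the kinase AMPK, which phosphorylates TXNIP. Of 9 genes for 14-3-3 proteins, the exportin CRM1 and O-GlcNAc transferase, 1 rose, 2 fell and 6 were not called (33.3% called, median -0.07). Xpo1, the CRM1 gene, fell from 432 ± 17.3 to 265 ± 23.5 normalised CPM (log2 fold change -0.71 ± 0.07, adjusted p = 0.000229). Ywhae fell by 0.16 ± 0.03 (adjusted p = 0.0037), and Ywhag rose by 0.22 ± 0.06 (adjusted p = 0.0204). The Ywhag call was lost in 8 of 13 settings, among them without control replicate 2 or 3 or fenofibrate replicate 1 or 2 (adjusted p 0.0527 to 0.0666). Of 7 tested AMPK and LKB1 genes, 2 rose, 1 fell and 4 were not called (42.9% called, median -0.08). The subunit gene Prkag2 rose by 0.73 ± 0.07 (adjusted p = 0.000217). Prkab2 (0.76 ± 0.23, adjusted p = 0.0349) and the catalytic subunit gene Prkaa1 (-0.14 ± 0.04, adjusted p = 0.0368) lost their calls in 9 and 7 of 13 settings. For Prkab2 these included leaving out any control or fenofibrate replicate 2 (adjusted p 0.0528 to 0.106), and for Prkaa1 leaving out control replicate 1 or 2 or fenofibrate replicate 2 or 3 (adjusted p 0.092 to 0.111).

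Of the other arrestin-fold genes, 0 of 6 tested rose, 2 fell and 4 were not called (33.3% called, median -0.20). At an unadjusted p of 0.05, 0 were higher, and DESeq2 called 0 higher and 1 lower. Arrb2, a beta-arrestin gene, had 19.9 to 20.1 normalised CPM in control and 12.5, 10.8 and 11.5 with fenofibrate (log2 fold change -0.79 ± 0.09, adjusted p = 0.000451). Vps26b, a retromer subunit gene, fell by 0.19 ± 0.06 (adjusted p = 0.0346). The Vps26b call was lost in 8 of 13 settings, among them leaving out any 1 library but fenofibrate replicate 3 (adjusted p 0.0516 to 0.102).

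**Figure D4:**
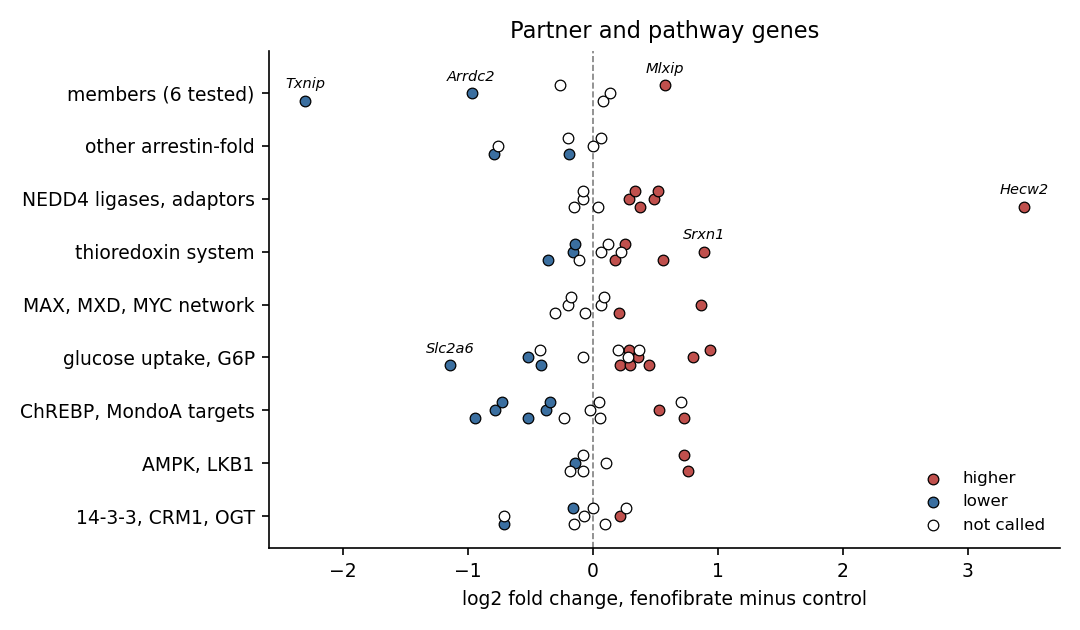
Log2 fold change (x axis, fenofibrate minus control) of each tested gene, with the members in the top row and 1 row for each of the 8 lists below; filled points passed an adjusted p of 0.05 upward (red) or downward (blue), and points are spread vertically only for legibility. Txnip lies left of every listed gene. The NEDD4 ligases and adaptors have filled points only on the right, and the ChREBP or MondoA targets have most of theirs on the left.

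The 5 genes whose profile over the 6 libraries was most like that of Txnip were A630089N07Rik, Csf1, Inka1, Lpar5 and Tfap4. Likeness was the Euclidean distance between log2 profiles, each centred on its own mean, over 7184 genes with at least 5 FPKM in a group, and it was smallest for A630089N07Rik at 0.53. That gene had 25.7 ± 2.83 normalised CPM in control and 5.22 ± 0.279 with fenofibrate, and Csf1, the macrophage growth factor gene, 63.1 ± 2.82 and 17.0 ± 1.80. The distance rests mainly on the difference between the groups, which all 5 share with Txnip by construction.

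The carbohydrate response element was found before 26 genes, of which 15 were tested. Of the 14 besides Txnip, 4 rose, 6 fell and 4 were not called, where 19.5% of all tested genes were called in each direction, with a median log2 fold change of -0.19 against 0.00 over all genes. The lowest of them was Nfkb2 at -0.70, an NF-κB subunit gene, and Fnip1 rose by 0.61, both named after their values were seen.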

How the data were processed

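RNA of 3 control and 3 fenofibrate libraries was measured by sequencing of mRNA-enriched total RNA. The authors deposited raw counts per gene and FPKM values for each library, with 100% of genes above 20 counts having 1 length behind their FPKM within 0.1%. The submitters' processing notes name HISAT2 2.0.4, StringTie 1.3.0 and GRCm39 without roles. Counting tool and strand are not given in the sources used here. Gene positions in the table are those of GRCm38 (98.7% of matched IDs have the GENCODE M21 start and end).

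Counts were filtered with filterByExpr, scaled by TMM and tested with edgeR 4.0.16 in R 4.3.3 (glmQLFit, glmQLFTest, no covariate), after the fits were tested on simulated data. Calls used p-values adjusted by Benjamini-Hochberg over 13629 genes, at 0.05. The SE is the log2 fold change divided by the square root of F. Alternatives were DESeq2 1.42.0, library totals without TMM, no filter, a block on the replicate number, leaving out each library, and limma 3.58.1 on log2(FPKM + 0.5), also with a pseudocount of 0.1 and without a filter. Levels per merged exon length were added after the data were seen.

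The members and lists were chosen with earlier results of these data known. Named were the members, a set of genes fixed by role, the called genes of each list with the largest changes (at most 2 in the direction of most calls and 1 in the other), and the 5 genes nearest to Txnip. Slc2a3, Klf10, Ndfip1 and Ndfip2, outside this rule, were named after their values were seen. Of the listed symbols, 1 (Dscr3) was matched through another name, Vps26c. Promoter sequences are RefSeq's, and all 8 members had 1 or more. Protein sequences were not used here.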

Additional observations from a re-analysis of the deposited data

How the results depend on the processing

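Txnip (log2 fold change -2.44 to -1.97) and Mlxip (0.48 to 0.63) passed the threshold in all 13 alternative settings, and Arrdc1, Arrdc3 and Mlx in none. Leaving out single libraries turned signs for Arrdc1 (-0.04 to 0.25), Arrdc3 (-0.54 to 0.01) and Mlx (-0.01 to 0.41). Leaving out single libraries gave 1 to 2 members called lower, the change being that of Arrdc2. Listed genes called higher numbered 13 with limma on log2(FPKM + 0.5) without a filter, in place of 24, and the cause was not tested. Over all genes, 2180 were called higher and 3280 lower with library totals, and 2031 and 3036 with limma on log2(FPKM + 0.5). Over all tested genes, same-numbered libraries did not deviate together (r of 0.020, 0.010 and -0.023). With 3 libraries per group this cannot show whether equal numbers were handled together. With the replicate block 2293 genes were called higher and 2247 lower, and 1 member higher and 2 lower. Precision is limited by 3 libraries per group, by the spread between them for Arrdc3 and Mlx (SE 0.31 and 0.21) and by the low counts of Arrdc2 (SE 0.24). With the replicate block the SE was 0.13 for Arrdc3 and 0.12 for Mlx, and neither gene was called.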

Other observations

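Some listed genes were too low to be tested and yet had groups that did not overlap. Fgf21, a hormone gene induced by PPARα and by ChREBP in liver, was counted 1, 1 and 1 times in control and 6, 11 and 5 times with fenofibrate. Hkdc1, a hexokinase gene, was counted 0, 3 and 0 times against 4, 11 and 7, and Pnpla3, a lipid droplet gene, 4 times over the controls and 0 times with fenofibrate. These counts are low and carry no test. They reached at most 11 in a library, and for Pnpla3 they lay below the limit of 3 in every library. How many untested genes of the whole table had such groups was not counted.

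Other listed genes were uneven within a group, as Mlx and Arrdc3 were, and were picked after their values were seen. The 14-3-3 gene Ywhaq was counted 3100, 3137 and 2913 times in control and 2924, 1258 and 1292 times with fenofibrate. Its relative Ywhah was counted 3475, 1551 and 3422 times in control and 1346, 3367 and 3399 times with fenofibrate, so the low library was not the same as for Ywhaq. The beta-arrestin gene Arrb1 was counted 229, 66 and 268 times in control and 33, 187 and 116 times with fenofibrate. None of these was called (adjusted p = 0.125, 0.900 and 0.367 in edgeR).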
